A study of Homo sapiens with 6 samples.

Results

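The genes described here are 10 genes of the hypoxia-inducible factor (HIF) pathway, taken by gene symbol from the 58735 genes of the deposited tables. HIF1A and EPAS1 encode the oxygen-regulated α subunits HIF-1α and HIF-2α. The other 8, EGLN3, VEGFA, ADM, NDRG1, ANKRD37, BNIP3, PDK1 and CA9, are genes that HIF is known to switch on. Of the 10, 9 passed the filter on low counts, and CA9 did not.

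RNA sequencing covered 6 samples of MDA-MB-231 cells, a human line of triple-negative breast cancer (TNBC) whose genotype the labels give as wild type. For 24 h, cells of 3 samples received vehicle, whose makeup the labels do not give. Cells of the other 3 received an aqueous extract of the herb Salvia chinensis Benth (SCH) at 100 mg/l for the same time. The methods give SCH doses as the weight of raw herb to which they correspond. The comparison asked which mRNAs differ after SCH treatment. The medium is RPMI-1640 in the labels and DMEM in the methods, and neither states a lowered oxygen level for either group. All results come from this single line, at 1 dose and 1 time. Total counts on genes were between 16836369 and 20291379 per sample, and 3 counts, taken as the floor, correspond to between 0.154 and 0.172 CPM, the count scaled to a common normalized library size.

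HIF is a pair of proteins, an α subunit (HIF-1α or HIF-2α) and a β subunit (ARNT). In cells with oxygen, prolyl hydroxylases of the EGLN family mark the α subunits, the VHL ubiquitin ligase binds the mark, and the proteasome destroys them, so that α protein is set mainly by its stability and much less by its mRNA. When oxygen is low, or when this degradation is blocked, the α subunits enter the nucleus, bind short DNA motifs with ARNT, and raise genes for glucose uptake and glycolysis, blood vessel growth, pH control and mitochondrial turnover, including the hydroxylase EGLN3, which feeds back on the pathway. Breast tumours commonly carry a HIF signature in their poorly perfused parts. The values below are mRNA levels, and the proteins were not measured in these files.

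Stretches from windows around the starts of the members are printed here because the HIF core motif, ACGTG or GCGTG, is the DNA letter string that HIF is known to bind. RefSeq (GRCh38.p14) windows from 250 bases before to 50 bases after a gene's start were searched on both strands for ACGTG and GCGTG, and the palindrome CACGTG was read once on each strand. Of the 10 genes, 8 had a window, with 2 windows each for HIF1A and PDK1, and 7 of these 10 windows held at least 1 match, each in a different gene, with ACGTG in 4. Among all 35116 windows of the table, 21.4% held ACGTG, 36.5% held GCGTG and 48.4% held either. A match is a description of the letters and was not tested as a binding site. Each start is that of a RefSeq transcript, and GENCODE 29 has further starts upstream of some, so that all 250 bases before the start are exonic there for ADM and ANKRD37, 117 for CA9 and 121 for the PDK1 window shown, and the EPAS1, ADM, ANKRD37, CA9 and PDK1 stretches lie inside the gene spans given below. Capitals mark the motif, read on the gene's strand or on the opposite strand (CACGT and CACGC), and positions count from the start, with -1 as the base before it. The HIF1A stretch lies at chr14:61695301-61695340 (plus strand, positions -212 to -173), that of EPAS1 at chr2:46297282-46297321 (plus strand, -125 to -86) and that of ADM at chr11:10304959-10304988 (plus strand, -114 to -85). The BNIP3 stretch lies at chr10:131982015-131982074 (minus strand, -151 to -92) and holds 6 matches, and that of ANKRD37 at chr4:185396676-185396705 (plus strand, -165 to -136) holds 3. The CA9 stretch lies at chr9:35673897-35673926 (plus strand, -31 to -2) and the PDK1 stretch, from the window of its further start, at chr2:172556065-172556094 (plus strand, -25 to 5) with 2 matches.
HIF1A: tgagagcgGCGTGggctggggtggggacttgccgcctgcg
EPAS1: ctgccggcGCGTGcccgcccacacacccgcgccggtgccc
ADM: agagcaggagcgcGCGTGgctgaggaaaga
BNIP3: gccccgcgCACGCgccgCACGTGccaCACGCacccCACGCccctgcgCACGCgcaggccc
ANKRD37: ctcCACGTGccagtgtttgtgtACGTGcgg
CA9: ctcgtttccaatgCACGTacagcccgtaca
PDK1: ctgcccgcCACGTccctCACGTaccactcg
The EGLN3 window, the other HIF1A window and the other PDK1 window held neither string.

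After 24 h of SCH, mRNA of both α subunits was higher, and so was mRNA of NDRG1, EGLN3, ANKRD37 and ADM, while VEGFA, the main growth factor for blood vessels, was lower. NDRG1 had the largest difference of the members, 2.73 times the vehicle level. BNIP3 and PDK1 did not pass the test, and CA9 was at or about the floor in both groups. In edgeR's quasi-likelihood test, with Benjamini-Hochberg adjustment over all 14736 tested genes and a threshold of 0.05, 6 of the 9 tested members were raised and 1 was lowered, where 29.3% of all tested genes were raised, 29.4% were lowered and 58.7% changed in either direction. The median log2 fold change of the 9 was 0.60, against -0.0034 for all tested genes. The members, and the lists below, were chosen with earlier results of these data known, so such contrasts are descriptions only. In 8 of the 9 tested members every SCH sample lay on the same side of every vehicle sample, which held for 62.4% of all tested genes. At an absolute log2 fold change of at least 1, which 8.77% of all tested genes reached, NDRG1 was the 1 member called. EGLN3 also passed this limit without vehicle sample 2 (log2 fold change 1.05), SCH sample 1 (1.14) or SCH sample 2 (1.04) and with library size as the only scaling (1.08). These are bulk samples, in which fewer cells that express a gene and less of its RNA per cell cannot be told apart.

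**Figure D1:**
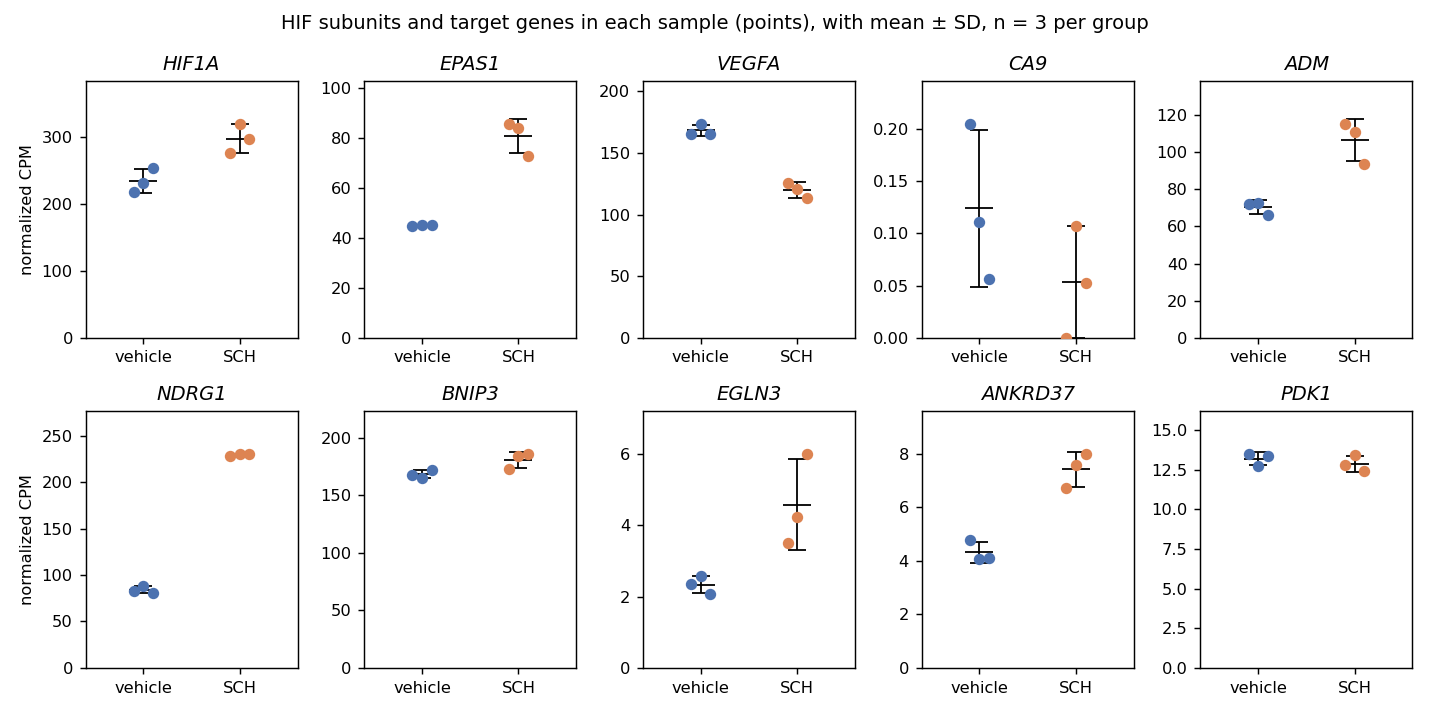
Normalized CPM (vertical axes, each from 0) of the 10 HIF genes in the 3 vehicle and 3 SCH samples, with each sample as a point and the mean ± SD as bars. SCH samples lie above all vehicle samples for HIF1A, EPAS1, ADM, NDRG1, BNIP3, EGLN3 and ANKRD37 and below them for VEGFA, the groups overlap for PDK1, and CA9 has at most 4 counts in a sample.

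HIF1A (ENSG00000100644, chr14:61695513-61748259, plus strand, GRCh38) encodes HIF-1α. Its mRNA was at 218, 231 and 253 CPM in vehicle samples 1, 2 and 3 and at 275, 319 and 296 CPM in SCH samples 1, 2 and 3. The groups did not overlap, although vehicle sample 3 and SCH sample 1 were close. From a mean of 234 ± 17.7 CPM (SD, n = 3) HIF1A rose to 297 ± 22.0 CPM, a log2 fold change of 0.34 (SE 0.058, edgeR adjusted p = 2.18e-05). EPAS1 (ENSG00000116016, chr2:46293667-46386703, plus strand) encodes HIF-2α, the paralog with more restricted expression among tissues. It was at 44.6, 45.0 and 45.3 CPM with vehicle and at 85.7, 83.8 and 72.9 CPM with SCH. The vehicle samples were almost equal, and even the lowest SCH sample stood far above them. EPAS1 rose from 44.9 ± 0.385 to 80.8 ± 6.87 CPM, a log2 fold change of 0.85 (SE 0.065, edgeR adjusted p = 1.14e-10).

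Per length, as FPKM (fragments scaled by gene length and 1 factor per sample), HIF1A was the more abundant α subunit in every sample. The ratio of HIF1A to EPAS1 FPKM was 6.94, 7.29 and 7.91 in the vehicle samples and 4.56, 5.40 and 5.76 in the SCH samples. All SCH ratios were thus below all vehicle ratios, with means of 5.24 ± 0.618 and 7.38 ± 0.496. The log2 ratio differed by -0.50, and the exact two-sided permutation test gave p = 0.1, the smallest value that this test allows for 3 samples against 3, so it cannot go under 0.05 here.

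**Figure D2:**
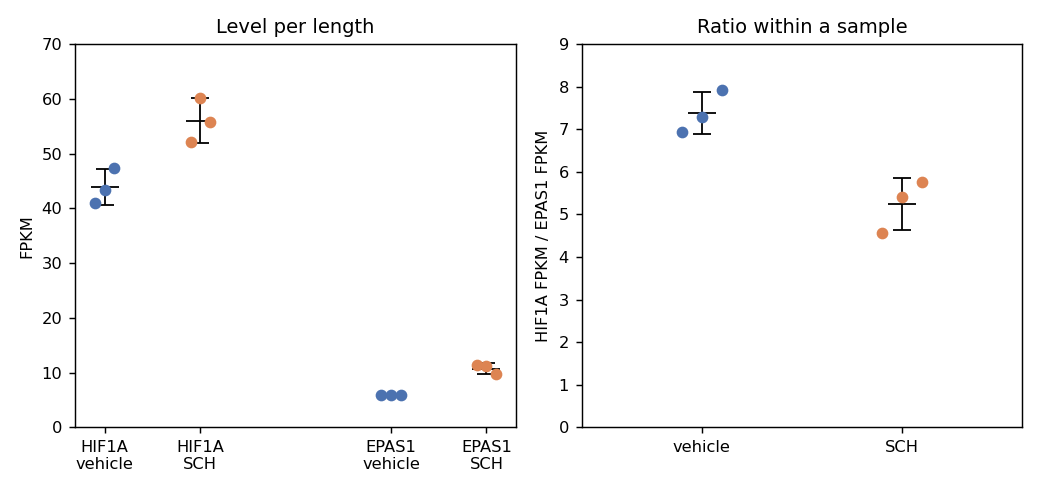
Left, FPKM of HIF1A and EPAS1 in each sample, and right, the ratio of HIF1A to EPAS1 FPKM within each sample, as points with mean ± SD (n = 3). Both subunits are higher with SCH, and the ratio has a mean of 7.38 in the vehicle samples and 5.24 in the SCH samples.

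At the HIF1A locus the annotation also places antisense transcripts, which run on the opposite strand. HIF1A-AS2 (ENSG00000258667, chr14:61715558-61751097, minus strand) was at 6.51, 5.01 and 5.45 CPM with vehicle and at 1.83, 2.25 and 1.47 CPM with SCH. It was lower in every SCH sample than in any vehicle sample, opposite to HIF1A, with a log2 fold change of -1.61 (SE 0.19, edgeR adjusted p = 1.88e-07). Its exons share no bases with those of HIF1A in GENCODE 29, but whether the counting used strand was not given in the sources used here. HIF1A-AS1 had 15, 6 and 11 counts with vehicle and 1, 1 and 3 with SCH and was too low to be tested.

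Among the targets, NDRG1 (ENSG00000104419, chr8:133237171-133302022, minus strand), a stress-responsive gene linked to differentiation and to restraint of metastasis, was at 83.3, 88.0 and 80.8 CPM with vehicle. In the SCH samples it was at 228, 230 and 230 CPM. No vehicle sample came near these levels, and the SCH samples differed little among themselves (84.0 ± 3.67 against 230 ± 1.02 CPM). NDRG1 rose by a log2 fold change of 1.45 (SE 0.051, edgeR adjusted p = 1.46e-16). ADM (ENSG00000148926, chr11:10304680-10307397, plus strand) encodes adrenomedullin, a secreted peptide that widens vessels. It was at 72.3, 72.9 and 66.0 CPM with vehicle and at 115, 111 and 93.6 CPM with SCH. The groups did not overlap, with SCH sample 3 the lowest of its group, and ADM rose from 70.4 ± 3.86 to 107 ± 11.4 CPM (log2 fold change 0.60, SE 0.068, edgeR adjusted p = 7.85e-08).

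EGLN3 (ENSG00000129521, chr14:33924231-34462774, minus strand) encodes the prolyl hydroxylase PHD3, both a target and a brake of HIF. It was weakly expressed, with 46, 46 and 37 counts with vehicle and 61, 79 and 114 with SCH. As CPM these were 2.36, 2.56 and 2.08 against 3.50, 4.24 and 5.99. The groups did not overlap, but the SCH samples were spread widely, with SCH sample 3 the highest. EGLN3 rose from 2.33 ± 0.242 to 4.58 ± 1.28 CPM (log2 fold change 0.97, SE 0.21, edgeR adjusted p = 3.14e-04). The span of EGLN3 in the files takes in SPTSSA, a gene of sphingolipid synthesis on the same strand, which was at 54.8 ± 0.405 CPM with vehicle and 61.3 ± 5.13 CPM with SCH. ANKRD37 (ENSG00000186352, chr4:185396021-185400628, plus strand), a small ankyrin repeat protein known as a HIF target, was at 4.77, 4.07 and 4.10 CPM with vehicle and 6.71, 7.57 and 7.99 CPM with SCH. All SCH samples were above all vehicle samples, and the log2 fold change was 0.78 (SE 0.14, edgeR adjusted p = 6.01e-05). Of its exonic bases, 35.2% are shared with UFSP2 on the opposite strand, which was at 19.8 ± 0.748 CPM with vehicle and 19.5 ± 1.53 CPM with SCH (log2 fold change -0.02, edgeR adjusted p = 0.828).

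VEGFA (ENSG00000112715, chr6:43770184-43786487, plus strand) encodes vascular endothelial growth factor A. It was at 166, 174 and 165 CPM with vehicle and at 126, 121 and 113 CPM with SCH. Every SCH sample was below every vehicle sample, opposite to the other members that changed. VEGFA fell from 168 ± 4.64 to 120 ± 6.38 CPM, a log2 fold change of -0.49 (SE 0.053, edgeR adjusted p = 3.09e-08).

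BNIP3 (ENSG00000176171, chr10:131966455-131982013, minus strand) encodes a mitochondrial protein that promotes mitophagy, the removal of mitochondria. It was at 167, 165 and 172 CPM with vehicle and at 173, 184 and 186 CPM with SCH. The groups did not overlap, but SCH sample 1 lay just above vehicle sample 3, and the difference missed the threshold (log2 fold change 0.10, 95% interval 0.01 to 0.20, edgeR adjusted p = 0.0756). It passed when vehicle sample 3 was left out (0.12, edgeR adjusted p = 0.0308) or SCH sample 1 (0.14, edgeR adjusted p = 0.0239), and with library size as the only scaling (0.21, edgeR adjusted p = 9.69e-04). BNIP3 has 39 pseudogenes in the files, which together held 200 counts, 1.04% of the 19276 counts of BNIP3. PDK1 (ENSG00000152256, chr2:172555373-172608669, plus strand) encodes a kinase that inhibits pyruvate dehydrogenase in mitochondria. It was at 13.5, 12.7 and 13.4 CPM with vehicle and at 12.8, 13.4 and 12.4 CPM with SCH. These ranges overlapped, and the log2 fold change was -0.04 with a 95% interval of -0.22 to 0.15 (edgeR adjusted p = 0.773). CA9 (ENSG00000107159, chr9:35673856-35681159, plus strand), a carbonic anhydrase of the cell surface and a widely used marker of hypoxic tumour cells, had 4, 2 and 1 counts with vehicle and 0, 2 and 1 with SCH. With both groups at or about the floor of 3 counts, CA9 was given no fold, and a difference was not detectable at this depth. In addition, 38.5% of its exonic bases are shared with ARHGEF39 on the opposite strand.

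In the order of levels per length, the vehicle samples held most HIF1A (43.9 ± 3.29 FPKM), then BNIP3 (30.6 ± 0.623), ADM (25.0 ± 1.39), VEGFA (11.3 ± 0.317), NDRG1 (8.27 ± 0.366) and EPAS1 (5.95 ± 0.0475 FPKM). ANKRD37 followed at 1.62 ± 0.148 FPKM, PDK1 at 0.856 ± 0.0273, EGLN3 at 0.306 ± 0.0320 and CA9 at 0.0719 ± 0.0436 FPKM. No neighbours in this order had overlapping ranges. With SCH the upper part of the order was different. HIF1A stayed at the top (56.0 ± 4.05 FPKM), ADM (38.1 ± 4.21) and BNIP3 (33.0 ± 1.15) overlapped, and NDRG1 (22.7 ± 0.0514) and EPAS1 (10.7 ± 0.948) stood above VEGFA (8.07 ± 0.458 FPKM). The last 4 places kept their order. The length used is that of all exonic bases of a gene, 14431 for VEGFA and 7302 for EPAS1. The order between genes rests on this length, and as CPM EPAS1 stayed below VEGFA with SCH.

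The genes that work on the HIF proteins were followed in a list of 24 partners and regulators, of which 22 could be tested. ARNT, the shared β subunit, and the oxygen-sensing hydroxylases EGLN1 and HIF1AN were higher with SCH, while ARNT2, RACK1 and HSP90AB1 were lower. VHL, the recognition subunit of the ligase, did not pass the test. In all, 10 were raised and 6 lowered, so 72.7% of the 22 changed, where 58.7% of all tested genes did. Their median log2 fold change was 0.035, and 0.010 to 0.087 with 1 sample left out. The 10 include CITED4, which passed the filter on low counts only through the SCH samples. With a minimum of 10 counts in every sample, 9 of 21 were raised and 6 lowered. Then 71.4% changed, where 60.7% of all tested genes did, and the median was 0.018.

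ARNT was at 26.6, 28.4 and 26.3 CPM with vehicle and at 37.0, 37.4 and 38.2 CPM with SCH, groups that lay well apart (log2 fold change 0.47, edgeR adjusted p = 3.45e-06). Its paralog ARNT2, a β subunit best known from the nervous system, was at 38.0, 43.2 and 42.7 CPM with vehicle and at 24.4, 23.1 and 21.1 CPM with SCH. It thus moved opposite to ARNT, with a log2 fold change of -0.85 (edgeR adjusted p = 1.85e-09). EGLN1, which encodes PHD2, the main prolyl hydroxylase of HIF-1α, rose from 89.0 ± 5.46 to 119 ± 4.30 CPM (0.42, edgeR adjusted p = 1.03e-06). HIF1AN encodes FIH, which blocks the binding of coactivators to HIF, and it rose from 87.0 ± 2.59 to 116 ± 3.79 CPM (0.41, edgeR adjusted p = 5.00e-07). With EGLN3, 3 of the 4 HIF hydroxylase genes were raised, where 29.3% of all tested genes were, and the 4 were not tested as a group. The 4th, EGLN2, fell from 4.40 ± 0.287 to 3.04 ± 0.614 CPM (-0.53, edgeR adjusted p = 0.0149), a call that was lost without vehicle sample 2 (edgeR adjusted p = 0.0529) and without SCH sample 2 (edgeR adjusted p = 0.113), and 30.6% of its exonic bases are shared with the RAB4B-EGLN2 readthrough and another gene.

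VHL was at 60.3 ± 5.58 CPM with vehicle and 58.3 ± 0.771 CPM with SCH (log2 fold change -0.05, 95% interval -0.18 to 0.08, edgeR adjusted p = 0.526). Of its partners in the ligase, RBX1 rose by 0.16 (edgeR adjusted p = 0.0181) and ELOB fell by 0.15 on the log2 scale (edgeR adjusted p = 0.0164). Both changes were small. The RBX1 call was lost without vehicle sample 2 (edgeR adjusted p = 0.0842) or SCH sample 2 (0.0669) and with upper quartile factors (0.0545), and the ELOB call without vehicle sample 1 (0.0711), vehicle sample 2 (0.113) or SCH sample 3 (0.108) and with library size only (0.473). CUL2 and ELOC, the scaffold and the other adaptor, had log2 fold changes of -0.01 and 0.01 and did not pass the test. USP20, a deubiquitinase that can spare HIF-1α, rose from 28.7 ± 4.02 to 46.0 ± 5.66 CPM (0.68, edgeR adjusted p = 1.15e-06). OS9, reported to bring HIF-1α and the hydroxylases together, rose from 116 ± 8.95 to 159 ± 10.6 CPM (0.45, edgeR adjusted p = 7.53e-07).

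RACK1 and HSP90AB1 act on HIF-1α independently of oxygen, the former towards degradation and the latter, a subunit of the HSP90 chaperone, towards stability. RACK1 fell from 1336 ± 54.1 to 797 ± 21.6 CPM (-0.74, edgeR adjusted p = 3.45e-12). HSP90AB1 fell from 3071 ± 79.3 to 2339 ± 45.4 CPM (-0.39, edgeR adjusted p = 6.58e-08). The coactivators EP300 (0.37, edgeR adjusted p = 2.36e-05) and CREBBP (0.20, edgeR adjusted p = 0.0123), acetyltransferases that HIF recruits, rose. The CREBBP call was lost without vehicle sample 1 (edgeR adjusted p = 0.104) and without SCH sample 1 (0.0940), and with limma on log2(FPKM + 1) (0.0802) and on log2(FPKM + 0.1) (0.0753). KAT5, another acetyltransferase, fell by 0.21 (edgeR adjusted p = 0.0268), a call that DESeq2 did not make (adjusted p = 0.0622) and that was lost with library size only (-0.10, edgeR adjusted p = 0.261), with no filter on low counts (0.0890), without vehicle sample 2 (0.0753) or 3 (0.0657) and without SCH sample 1 (0.0665) or 2 (0.108), and 38.6% of its exonic bases are shared with RNASEH2C. Among genes with fewer counts, named after their values were seen, CITED4 had 3, 7 and 6 counts with vehicle and 19, 22 and 13 with SCH, so it passed the filter on low counts only through the group where it is high, and its call is given no weight. With a minimum of 10 counts in every sample it was not tested, and 9 regulators were raised and 6 lowered. NPAS1 was raised from 2.60 ± 0.371 to 3.83 ± 0.182 CPM (0.56, edgeR adjusted p = 0.0137), a call that was lost without vehicle sample 3 (0.45, edgeR adjusted p = 0.0605). NPAS3 had 7, 6 and 14 counts with vehicle and 0 in every SCH sample, and HIF3A, the third α subunit gene, had 1 count in all samples together, so both were removed by the filter. In the fit with no filter on low counts HIF3A was not called (edgeR adjusted p = 0.55). NPAS3 was called lower there (edgeR adjusted p = 6.46e-06), but with 0 counts in every SCH sample this call is given no weight.

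**Figure D3:**
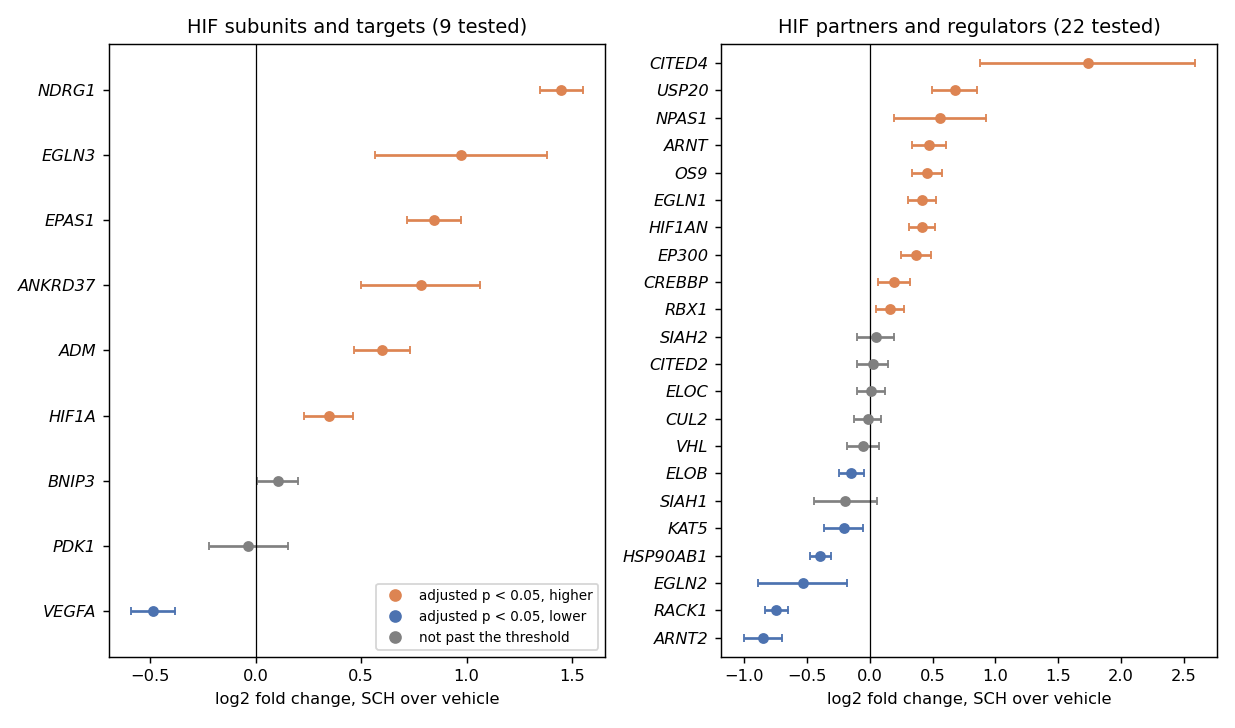
Log2 fold change of SCH over vehicle (horizontal axes) with its 95% interval for the 9 tested HIF genes (left) and the 22 tested partners and regulators (right), coloured by call at an edgeR adjusted p under 0.05. On the left 6 genes are raised and VEGFA is lowered, and on the right 10 are raised and 6 lowered, with ARNT and ARNT2 on opposite sides of 0. The 10 include CITED4, which passed the filter on low counts only through the SCH samples.

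A wider set of 96 other known HIF targets was followed in 5 lists by process, of which 84 genes could be tested. Genes of this set went both ways, with 34 raised and 28 lowered and a median log2 fold change of 0.026. Of the 84, 73.8% changed, where 58.7% of all tested genes did, and 7 reached an absolute log2 fold change of at least 1, as did 8.77% of all tested genes. With a minimum of 10 counts in every sample, 32 of 80 were raised and 27 lowered and 5 reached that limit, and with limma 2 did on the log2(FPKM + 1) scale and 4 on the log2(FPKM + 0.1) scale. Over all tested genes, 29.3% were raised and 29.4% lowered. Of 12 tested transcription and chromatin targets 7 were raised and 1 lowered, and of 24 glycolysis targets 5 and 10. These lists changed in 66.7% and 62.5% of their genes, near the 58.7% of all tested genes. Secreted and matrix targets had 10 raised and 6 lowered of 19, or 9 and 5 of 17 with a minimum of 10 counts in every sample. Mitochondrial and survival targets (5 and 4 of 11) and transport, redox and signalling targets (7 and 7 of 18) were about even. Differences between the lists were not tested. The medians were 0.34 for transcription and chromatin, 0.19 for secreted and matrix, 0.16 for mitochondria and survival, 0.060 for transport and -0.10 for glycolysis. With 1 sample left out in turn they were 0.30 to 0.37, 0.14 to 0.22, 0.094 to 0.18, 0.026 to 0.11 and -0.097 to -0.060. The median of the whole set was then 0.027 to 0.058.

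**Figure D4:**
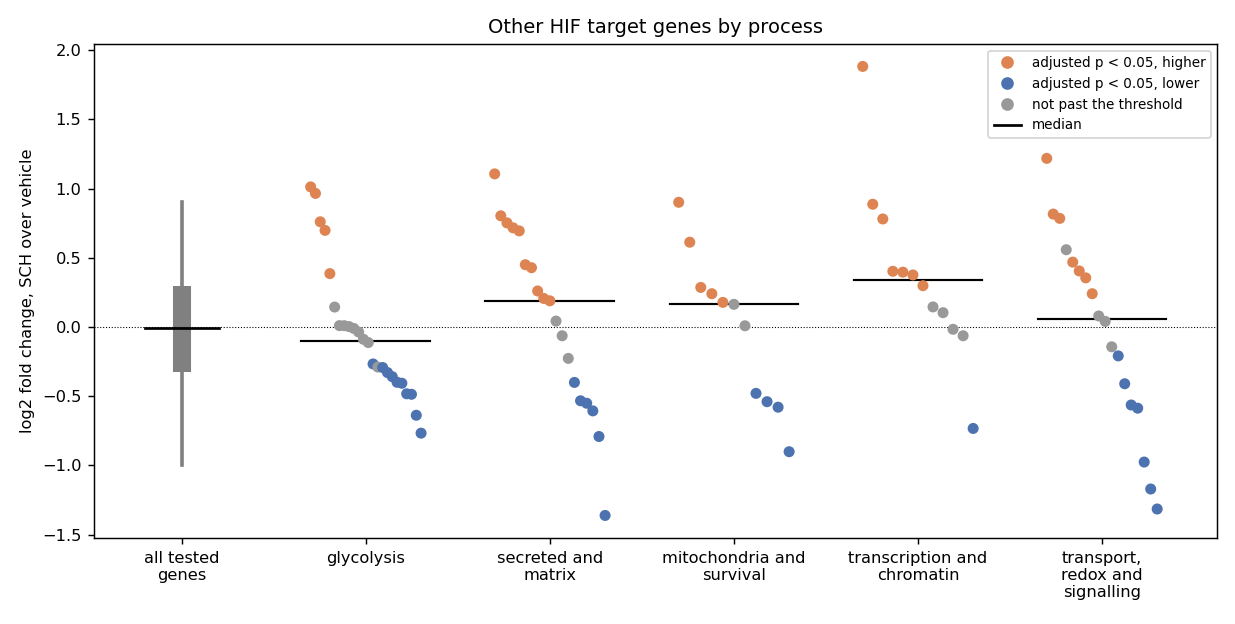
Log2 fold change of SCH over vehicle (vertical axis) for each tested gene of the 5 target lists, coloured by call, with the median of each list as a line, and for all 14736 tested genes the median (line), the 25th to 75th percentile (thick bar) and the 5th to 95th percentile (thin bar). Glycolysis targets lie mostly at or below 0 and transcription and chromatin targets mostly above it.

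Glycolysis, the breakdown of glucose to pyruvate and lactate, is the process most closely tied to HIF-1α, and its most abundant genes were for the larger part lower with SCH. Per length, the 10 lowered genes were at 35.7 to 945 FPKM in the vehicle samples and the 5 raised genes at no more than 13.8 FPKM. Of these 5, PDK3 passed the filter on low counts only through the SCH samples, and the level of ALDOA is uncertain. ENO1, the widely expressed enolase, was at 3112 ± 166 CPM with vehicle and 1829 ± 31.1 CPM with SCH (-0.77, edgeR adjusted p = 2.66e-12). LDHA, which turns pyruvate to lactate, fell from 1634 ± 41.2 to 1050 ± 40.7 CPM (-0.64, edgeR adjusted p = 4.16e-11). PFKP, the platelet-type phosphofructokinase, fell from 613 ± 44.2 to 438 ± 11.7 CPM (-0.49, edgeR adjusted p = 2.56e-08). The other 7 lowered genes, SLC16A3, SLC2A1, PGK1, PGAM1, PKM, GAPDH and GPI, had log2 fold changes between -0.48 and -0.27. Several of these enzymes have processed pseudogenes, and how the counting treated reads that fit more than 1 place was not given in the sources used here. HK1 and TPI1 did not pass the test (log2 fold changes 0.00 and -0.01).

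Among the raised genes of the list, ENO2, the neuronal enolase, was at 59.5, 62.9 and 60.5 CPM with vehicle and at 105, 101 and 104 CPM with SCH. It rose in all SCH samples (0.76, edgeR adjusted p = 3.86e-11), opposite to ENO1. SLC2A3, the glucose transporter GLUT3, rose from 9.89 ± 1.56 to 16.0 ± 0.814 CPM (0.70, edgeR adjusted p = 9.76e-06), opposite to SLC2A1, the transporter GLUT1 (433 ± 17.2 to 327 ± 8.42 CPM, -0.41, edgeR adjusted p = 1.14e-07). ALDOA, an aldolase, rose from 3.63 ± 0.382 to 7.36 ± 1.67 CPM (1.01, edgeR adjusted p = 1.84e-05), but 53.5% of its exonic bases are shared with other genes, so its level is uncertain. PFKFB3 (71.7 ± 3.03 to 93.6 ± 2.16 CPM, 0.39, edgeR adjusted p = 2.44e-06) and PDK3 were the other 2 raised genes. PDK3 had 10, 7 and 7 counts with vehicle and 17, 18 and 12 with SCH, so it too passed the filter only through the SCH samples, and with a minimum of 10 counts in every sample 4 glycolysis targets were raised and 10 lowered. Its call (edgeR adjusted p = 0.0380) was lost with DESeq2 (adjusted p = 0.112), with limma on log2(FPKM + 1) (0.0601) and with no filter on low counts (0.0680). It was also lost without vehicle sample 1 (edgeR adjusted p = 0.0543), 2 (0.101) or 3 (0.0935) and without SCH sample 1 (0.112) or 2 (0.121).

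**Figure D5:**
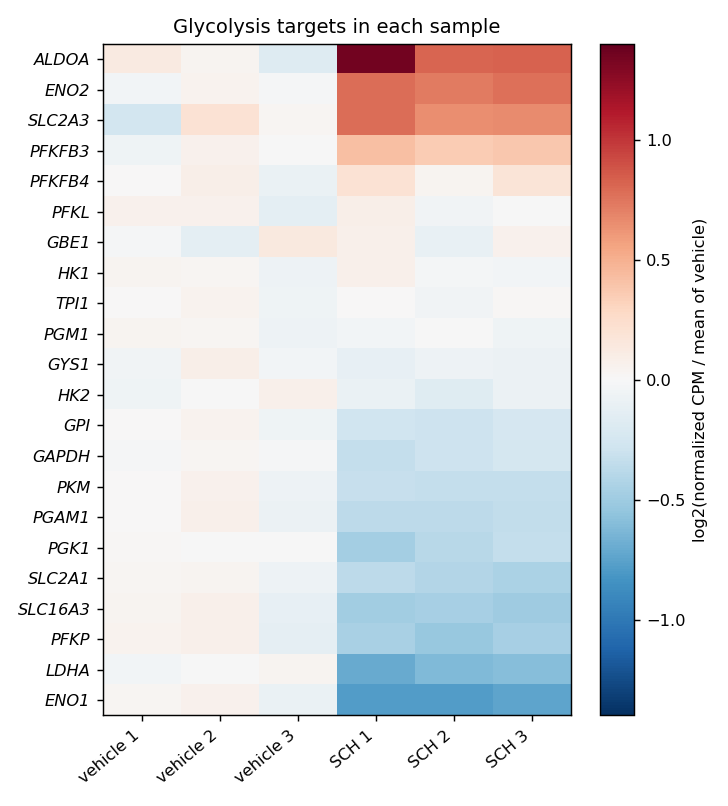
Log2 of normalized CPM over the mean of the vehicle samples (colour scale) for the 22 glycolysis targets with a mean count of at least 100 (rows) in the 6 samples (columns). ENO1, LDHA and PFKP are lower in all 3 SCH samples, and ALDOA, ENO2 and SLC2A3 are higher in all 3.

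Among secreted and matrix targets, P4HA2, a collagen prolyl hydroxylase, rose from 66.5 ± 1.64 to 116 ± 8.01 CPM (0.80, edgeR adjusted p = 4.71e-11). TGFA, a ligand of the EGF receptor, rose from 42.1 ± 1.22 to 71.0 ± 3.05 CPM (0.75, edgeR adjusted p = 2.88e-10). STC1, the hormone stanniocalcin 1, rose from 83.7 ± 1.40 to 137 ± 9.58 CPM (0.72, edgeR adjusted p = 1.79e-10). Where the mean count was 100 or more, the lowered genes with the largest differences were LOXL2, which crosslinks collagen (329 ± 23.7 to 190 ± 12.6 CPM, -0.79, edgeR adjusted p = 3.89e-11), and the vasoconstrictor EDN1 (16.1 ± 1.18 to 10.6 ± 1.41 CPM, -0.61, edgeR adjusted p = 4.23e-05). VEGFC, a growth factor of lymphatic vessels and a relative of VEGFA, also fell (108 ± 6.01 to 73.6 ± 0.998 CPM, -0.55, edgeR adjusted p = 1.24e-08).

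Of the mitochondrial and survival targets, BNIP3L, the mitophagy receptor NIX and paralog of BNIP3, was at 57.3, 59.1 and 63.2 CPM with vehicle and at 111, 112 and 112 CPM with SCH. It rose by 0.90 (edgeR adjusted p = 2.86e-12), where BNIP3 had 0.10, and the difference between these paralogs was not tested. HMOX1, the haem oxygenase that also responds to oxidative stress, rose from 14.4 ± 0.723 to 22.1 ± 1.16 CPM (0.61, edgeR adjusted p = 2.09e-06). PMAIP1, the pro-apoptotic NOXA, rose from 152 ± 5.13 to 185 ± 6.12 CPM (0.29, edgeR adjusted p = 3.26e-05). Lowered were CDKN3, a phosphatase of the cell cycle (63.2 ± 2.55 to 33.8 ± 2.89 CPM, -0.90, edgeR adjusted p = 1.08e-10), and the mitochondrial protease LONP1 (323 ± 19.5 to 216 ± 8.50 CPM, -0.58, edgeR adjusted p = 1.60e-09). AK4, a mitochondrial adenylate kinase, fell as well (57.6 ± 2.67 to 39.6 ± 2.21 CPM, -0.54, edgeR adjusted p = 2.14e-07).

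In the transcription and chromatin list, KDM3A, a histone H3K9 demethylase, was at 23.9, 26.8 and 28.2 CPM with vehicle and at 44.2, 48.4 and 53.1 CPM with SCH. The groups lay apart, with a log2 fold change of 0.89 (edgeR adjusted p = 1.28e-09). The repressors BHLHE40 (35.2 ± 1.83 to 60.5 ± 3.60 CPM, 0.78, edgeR adjusted p = 7.97e-10) and BHLHE41 (10.1 ± 0.352 to 13.3 ± 1.97 CPM, 0.40, edgeR adjusted p = 0.00402) rose together. ZNF395 was the 1 lowered gene of the list (34.5 ± 1.83 to 20.8 ± 1.28 CPM, -0.73, edgeR adjusted p = 2.25e-08), and 34.9% of its exonic bases are shared with FBXO16. SNAI1, a repressor of epithelial genes with a mean count under 100 and named after its values were seen, was at 1.12 ± 0.198 CPM with vehicle and 4.16 ± 0.125 CPM with SCH (1.88, edgeR adjusted p = 1.18e-07).

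In the last list, SPAG4, a nuclear envelope protein, rose from 6.14 ± 0.818 to 10.8 ± 0.968 CPM (0.82, edgeR adjusted p = 8.10e-06). NARF, a protein that binds prelamin A, rose by 0.47 (43.6 ± 1.61 to 60.4 ± 3.16 CPM, edgeR adjusted p = 1.00e-06). TMEM45A fell from 14.0 ± 1.30 to 5.59 ± 0.767 CPM (-1.32, edgeR adjusted p = 4.05e-09). CAV1, the coat protein of caveolae, fell from 435 ± 18.9 to 193 ± 19.0 CPM (-1.17, edgeR adjusted p = 8.86e-14), and the transferrin receptor TFRC fell from 715 ± 30.5 to 363 ± 7.01 CPM (-0.98, edgeR adjusted p = 4.46e-14). MIR210HG, the host gene of the hypoxia-linked miRNA miR-210, was at 1.35 ± 0.364 CPM with vehicle and 2.01 ± 0.416 CPM with SCH and did not pass the test (0.56, edgeR adjusted p = 0.0820).

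Markers of the cell line were checked in the same samples. Of the mesenchymal-like markers of MDA-MB-231, VIM, CD44, AXL and CAV1 were abundant and SPARC was at the floor, and their summed level was 4356, 4441 and 4411 CPM with vehicle and 3001, 3071 and 3056 CPM with SCH, with AXL the most abundant and CAV1 also in the transport list. AXL and VIM were lowered (log2 fold changes -0.84 and -0.56, edgeR adjusted p = 2.52e-13 and 2.02e-10), and CD44 did not pass the test (999.7 ± 31.2 and 1023 ± 23.6 CPM, 0.03, edgeR adjusted p = 0.547). Of the luminal markers, PGR had 1 count in all and ESR1 at most 4 in a sample, and the summed level of the 6 genes was 35.4, 34.9 and 35.5 CPM with vehicle and 30.7, 27.9 and 29.2 CPM with SCH, with EPCAM the most abundant. Within this sum FOXA1 was raised (4.10 ± 0.650 to 9.18 ± 1.11 CPM, 1.16, edgeR adjusted p = 4.41e-07), while GATA3 (13.7 ± 0.619 to 7.91 ± 1.25 CPM, -0.79, edgeR adjusted p = 4.36e-06) and EPCAM (-0.52, edgeR adjusted p = 9.22e-05) were lowered. For 6 markers of other cell types the sums were 9.38, 9.58 and 9.61 CPM with vehicle and 11.2, 12.0 and 11.1 CPM with SCH, with COL1A1 the most abundant and CD68 and ALB at the floor. COL1A1 was raised (4.89 to 8.28 CPM, 0.76, edgeR adjusted p = 4.26e-05). PTPRC, the leukocyte marker, had 39, 37 and 34 counts with vehicle and 4, 9 and 3 with SCH, so it passed the filter on low counts only through the vehicle samples, and no call is given for it. The part of these shifts in the HIF results was not tested.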

How the data were processed

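Per gene and sample, the authors deposited raw read counts and also FPKM values. For genes of at least 100 counts, the FPKM equalled the count over the gene length times 1 factor per sample, within 1%, in all 6 samples. Relative to scaling by total counts, this factor was 0.995 to 1.01 with vehicle and 0.937 to 0.941 with SCH. The submitters' processing notes name CASAVA 1.8, HISAT2 2.0.5, featureCounts 1.5.0-p3, DESeq2 1.20.0 and GRCh38, without their roles or settings. Identifiers and spans were matched to GENCODE 29 (58724 of 58735 with the same start and end), and the deposited gene length was not used in the tests. The design text states 3 biological repeats per group. No sample was a copy of another, since the chi-square statistic between samples of a group was 2.05 to 5.29 per degree of freedom.

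Counts were fitted in R 4.3.3 with edgeR 4.0.16 (TMM, filterByExpr, quasi-likelihood fit and test, SCH against vehicle, no covariates, Benjamini-Hochberg adjustment, threshold 0.05). The common biological coefficient of variation was 5.17%. Intervals are 1.96 SE to each side. The alternatives were RLE, upper quartile or no normalization factors, no filter, a minimum of 10 counts in all samples, DESeq2 1.42.0 as the tool, limma 3.58.1 on log2(FPKM + 1) and log2(FPKM + 0.1), a replicate block, each sample left out and a fold limit. In simulated data of 14539 genes, 96 were changed by 0.5 and 99 by 1 on the log2 scale. Of these, 74.0% and 86.9% were recovered, with 3.09% false calls. Since 58.7% of the genes tested in the real data were called, these rates need not hold there.

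The members and lists were chosen with earlier results of these data known, and the lists were written from general knowledge. Named were all members, every changed regulator with a mean count of at least 100 together with ARNT, EGLN1, EGLN2, HIF1AN and VHL, and in each target list up to 3 raised and 3 lowered genes with the largest fold change and that mean count. A gene that this rule names is not reported here.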

Additional observations from a re-analysis of the deposited data

How the results depend on the processing

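With library size as the only scaling, the median over all 14736 genes shifted by 0.103 on the log2 scale, from -0.0034 to 0.099, and the share of calls that were raised went from 49.9% to 62.6%. Relative to that median, BNIP3 was at 0.11 under either scaling. A limit of 1 on the absolute log2 fold change left 1292 genes, 1 member and 7 other targets. Leaving out each sample in turn gave 7809 to 8489 changed genes, 7 to 8 members, 12 to 15 regulators, 59 to 63 other targets and a log2 difference of the HIF1A to EPAS1 ratio of -0.57 to -0.40. PDK1 changed sign with library size only (0.067) and VHL likewise (0.052), and the samples left out in turn gave -0.059 to 0.0021 for PDK1 (positive without SCH sample 3) and -0.090 to 0.034 for VHL (positive without vehicle sample 1), none past the threshold. Apart from that limit, direction and call held in all alternatives run for 44 of 52 named genes, among them 7 of the 9 members, the exceptions being BNIP3 and PDK1. On the log2(FPKM + 1) scale, EGLN3 had a difference of 0.29, since its FPKM is under 1. DESeq2 called 7919 genes, 7912 of them also called by edgeR. Same-numbered samples had correlations of deviations of 0.060, -0.028 and 0.042. With 3 samples per group these cannot settle whether such samples were handled as pairs. With the replicate numbers as a replicate block, 8705 genes, 7 members, 16 regulators and 63 other targets changed. For EGLN3, CA9 and the antisense RNAs the depth, with a floor of 0.154 to 0.172 CPM, limits precision.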
